A study of Homo sapiens with 6 samples.

Results

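A set of 10 genes that encode transcription factors of mesenchymal cells, *PRRX1*, *PRRX2*, *SNAI1*, *SNAI2*, *TWIST1*, *TWIST2*, *ZEB1*, *ZEB2*, *TCF4* and *FOXC2*, were followed in RNA sequencing of H2452 cells, an established pleural mesothelioma (PM) line. They were matched by gene symbol and make up 10 of the 58735 genes in the deposited table. The series comprises 6 libraries, 3 from cells that received a scrambled control sgRNA (sgCtrl, genotype WT in the labels) and 3 from cells that received an *NF2*-targeting sgRNA (sg*NF2*-1, genotype NF2-KO in the labels). Both groups were infected with the same kind of lentiviral vector, in which a U6 promoter drives the sgRNA and an SFFV promoter drives Cas9-FLAG-P2A-mCherry, and mCherry-positive cells were sorted after infection. The sorted cells were not stated to be a clone, and 1 *NF2* guide was sequenced. The methods of the study describe replicates in general as biological, without saying how those of this experiment were cultured, and p-values measure the spread between these libraries. The 10 genes were chosen by the transcript counts of these same libraries, in that the decrease of *PRRX1* from sgCtrl to sg*NF2*-1 was already known, and were completed with factors of related function. Their differences between sgCtrl and sg*NF2*-1 are therefore given as a description, without a p-value.

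These factors sit at the center of the epithelial-mesenchymal transition, in which cells lose junctions and acquire a matrix-producing, motile state. The Snail zinc-finger proteins (SNAI1, SNAI2) and the ZEB proteins (ZEB1, ZEB2) repress epithelial genes such as *CDH1*, which encodes E-cadherin. The TWIST proteins are basic helix-loop-helix (bHLH) factors that bind DNA as dimers, commonly with the E proteins TCF3, TCF4 and TCF12. PRRX1 and PRRX2 are paired-related homeobox factors of limb and craniofacial mesenchyme, and FOXC2 is a forkhead factor of mesenchyme and vessels. Mesothelial cells already combine keratins with vimentin, and PM ranges from epithelioid to sarcomatoid forms. *NF2* encodes merlin, a membrane-linked protein that acts upstream of the Hippo kinases.

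The PRRX, TWIST and ZEB pairs are paralogs with related DNA-binding domains. Their longest stretches of identical coding sequence are shown because a read lying wholly within such a stretch could not be assigned to one gene. In the GENCODE release 29 transcripts, the longest identical run in the coding sequence of both genes was 20 bases for *PRRX1* and *PRRX2*, 23 bases for *TWIST1* and *TWIST2*, and 20 bases for *ZEB1* and *ZEB2*. The capitals mark bases shared by both paralogs.
PRRX1 and PRRX2: GCCAAGTTCCGCAGGAATGA
TWIST1 and TWIST2: GAGCGCCAGCGCACCCAGTCGCT
ZEB1 and ZEB2: TGCCCAAACTGCAAGAAACG
These runs are shorter than the paired-end reads named in the methods of the study.

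A promoter window of *PRRX1*, the factor with the largest difference, is shown beside one of *TWIST2*, the factor with the highest level per length. GENCODE release 29 gives 8 distinct transcript starts for *PRRX1* and 1 for *TWIST2*, and other starts of *PRRX1* were not examined. Each window spans 250 bases before to 50 bases after the transcript start, from RefSeq on GRCh38.p14, on the plus strand, at chr1:170663881-170664180 for *PRRX1* and chr2:238847835-238848134 for *TWIST2*. The capitals mark CG dinucleotides.
PRRX1 promoter: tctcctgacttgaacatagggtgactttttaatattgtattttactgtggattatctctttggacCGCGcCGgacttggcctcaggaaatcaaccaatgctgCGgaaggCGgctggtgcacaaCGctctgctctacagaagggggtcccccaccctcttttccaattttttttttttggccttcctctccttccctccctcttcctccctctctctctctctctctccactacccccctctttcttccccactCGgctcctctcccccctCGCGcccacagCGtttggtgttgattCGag
TWIST2 promoter: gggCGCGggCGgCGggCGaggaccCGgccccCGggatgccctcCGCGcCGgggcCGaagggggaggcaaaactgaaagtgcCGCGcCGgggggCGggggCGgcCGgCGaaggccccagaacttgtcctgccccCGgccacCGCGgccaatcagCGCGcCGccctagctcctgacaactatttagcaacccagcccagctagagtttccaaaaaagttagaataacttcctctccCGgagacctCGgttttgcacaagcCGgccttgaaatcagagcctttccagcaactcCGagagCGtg
The *PRRX1* window held 11 CG dinucleotides and had 53.0% G and C, and the *TWIST2* window held 29 and had 66.7%. The median over 35116 RefSeq promoter windows was 14 CG dinucleotides. Neither window contained, on either strand, CACCTG (the E-box form bound by Snail and ZEB proteins, present in 20.6% of all windows), CATTCC (the core of the motif of TEAD factors, 14.0%) or TAATTA (a homeodomain core, 4.84%). These letters were searched in this window alone.

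The 6 libraries held 14782423 to 17416463 counts each. The targeted gene *NF2* had 1162, 1197 and 1025 counts in sgCtrl and 692, 802 and 590 in sg*NF2*-1, or -0.69 in log2 fold change (SE 0.10) with an adjusted p = 7.9e-06 by edgeR's quasi-likelihood test, so its transcript was reduced and not lost. Of 10 mesothelial markers, 8 passed the expression filter, and the FPKM summed over the list was 728 to 816 in sgCtrl and 619 to 755 in sg*NF2*-1. Within this list *MSLN* was called higher, and *WT1*, *KRT19* and *PDPN* were called lower. Among the markers of other cell types, *PTPRC* of leukocytes, *TEK* of endothelium and *NKX2-1* and *SFTPC* of lung epithelium had 0 counts in every library. The summed FPKM of the 5 leukocyte markers was 0.106 to 0.240 in sgCtrl and 0.0279 to 0.0618 in sg*NF2*-1, that of the 4 endothelial markers was 0.771 to 1.09 and 0.258 to 0.445, and that of the 5 lung epithelial markers was at most 0.126. The endothelial sum contains *PECAM1*, which fell from 6.31 to 1.296 CPM (adjusted p = 1.7e-07, edgeR), while *VWF* had at most 2 counts. *CDH5*, the remaining endothelial marker, also passed the expression filter and was not called, with a log2 fold change of 0.37. The part of these markers in the results was not tested.

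A total of 7 of the 10 factors passed the expression filter, and *PRRX2*, *TCF4* and *FOXC2* did not. In sg*NF2*-1, *PRRX1*, *SNAI1* and *TWIST1* were lower, *SNAI2* was higher, and *TWIST2*, *ZEB1* and *ZEB2* overlapped between the groups. Genes were called at an adjusted p under 0.05 (edgeR's quasi-likelihood test) and a log2 fold change beyond 0.5. By this rule 8.42% of the 14179 tested genes were higher and 9.32% lower, and the groups did not overlap for 23.2% and 22.2%. Among the factors 1 was called higher and 3 lower, the same 4 whose groups did not overlap. Nothing is read from these counts, since the contrast was used in assembling the genes. CPM below denotes the count relative to the TMM-scaled library total, in counts per 1000000.

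**Figure D1:**
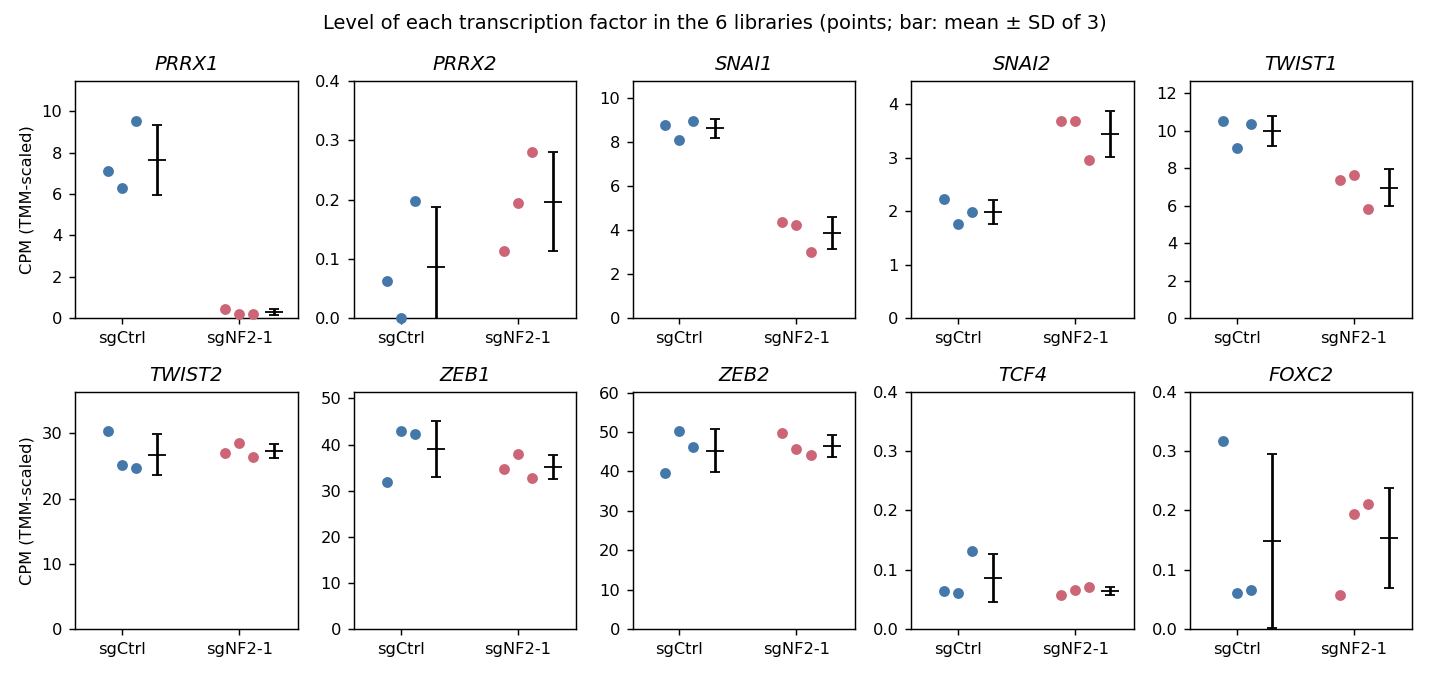
CPM (TMM-scaled, linear axes from 0) of each factor in the 3 sgCtrl and 3 sg*NF2*-1 libraries, with 1 point per library and bars giving the mean ± SD (n = 3). *PRRX1* fell between 6.28 and 9.56 CPM in sgCtrl and between 0.194 and 0.455 CPM in sg*NF2*-1, while *TWIST2*, *ZEB1* and *ZEB2* overlapped and *PRRX2*, *TCF4* and *FOXC2* stayed below 0.32 CPM.

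*PRRX1* (ENSG00000116132, chromosome 1, 170662728 to 170739419, plus strand), the homeobox factor of mesenchymal progenitors, had 112, 103 and 145 counts in sgCtrl replicates 1 to 3 and 8, 3 and 3 in sg*NF2*-1. Every sgCtrl library was above every sg*NF2*-1 library, and sg*NF2*-1 replicates 2 and 3 were at 3 counts, the limit that a count of 0 allows. Scaled to library size, the sgCtrl mean was 7.65 ± 1.71 CPM and the sg*NF2*-1 mean 0.287 ± 0.146 CPM (SD, n = 3 each, as for all means here). The fitted log2 fold change was -4.66 (standard error 0.34), a description only, since *PRRX1* was chosen for this decrease. It passed the expression filter through its sgCtrl counts alone, with every sg*NF2*-1 library under the minimum count of 10. From the summed counts, 360 against 14, the level in sgCtrl was 25.7 times that in sg*NF2*-1 (exact 95% interval 15.1 to 47.4, counting error only). In bulk RNA, fewer cells with the transcript and less transcript per cell cannot be told apart. Leaving out each library in turn gave log2 fold changes from -5.18 to -4.44.

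Its paralog *PRRX2* (ENSG00000167157, chromosome 9), a related mesenchymal homeobox factor, had 1, 0 and 3 counts in sgCtrl and 2, 3 and 4 in sg*NF2*-1. All but 1 of these libraries were at or under 3 counts, and no fold is given. Of the FPKM summed over both PRRX genes, *PRRX1* held 94.7% and 88.5% in sgCtrl replicates 1 and 3, all of it in sgCtrl replicate 2, and 38.9%, 13.7% and 10.7% in the sg*NF2*-1 libraries. Both genes were near the detection limit in sg*NF2*-1, where the share also depends on the gene lengths.

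Among the Snail genes, *SNAI1* (ENSG00000124216, chromosome 20, 49982999 to 49988886, plus strand) had 138, 133 and 136 counts in sgCtrl and 77, 65 and 43 in sg*NF2*-1. The groups did not overlap, and sg*NF2*-1 replicate 3 was the lowest. The level of *SNAI1* was 8.61 ± 0.449 CPM in the former and 3.87 ± 0.740 CPM in the latter, with a log2 fold change of -1.14 (standard error 0.19). *SNAI2* (ENSG00000019549, chromosome 8), which encodes Slug, had 35, 29 and 30 counts in sgCtrl and 65, 57 and 42 in sg*NF2*-1. Here the sg*NF2*-1 libraries were all above the sgCtrl libraries, at 3.45 ± 0.430 against 1.99 ± 0.227 CPM. The log2 fold change of *SNAI2* was 0.80 (standard error 0.26). The call was lost with DESeq2 at a log2 fold change of 0.80, and in edgeR without sgCtrl replicate 2 (0.72), without sg*NF2*-1 replicate 1 (0.75) and without sg*NF2*-1 replicate 2 (0.75). The Snail paralogs thus differed between the groups in opposite directions. *SNAI1* made up 88.8%, 90.2% and 90.1% of the FPKM of the pair in sgCtrl and 70.4%, 69.6% and 67.3% in sg*NF2*-1. It remained the more abundant of the pair in every library.

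Of the TWIST genes, *TWIST1* (ENSG00000122691, chromosome 7, 19020991 to 19117672, minus strand) had 166, 149 and 157 counts in sgCtrl and 130, 118 and 83 in sg*NF2*-1. The groups did not overlap in CPM, at 9.99 ± 0.792 and 6.95 ± 0.983, and sg*NF2*-1 replicate 3 was again the lowest. The log2 fold change of *TWIST1* was -0.52 (standard error 0.16). This lies close to the limit of 0.5, and the call was lost without sgCtrl replicate 1 (-0.48), without sgCtrl replicate 3 (-0.49) and without sg*NF2*-1 replicate 3 (-0.41). *TWIST2* (ENSG00000233608, chromosome 2, 238848032 to 238910543, plus strand) had 478, 412 and 375 counts in sgCtrl and 476, 440 and 376 in sg*NF2*-1. Its groups overlapped, at 26.7 ± 3.14 and 27.3 ± 1.08 CPM, with a log2 fold change of 0.03 (standard error 0.11). *TWIST2* accounted for 75.7%, 75.0% and 72.1% of the FPKM of the pair in sgCtrl and 79.9%, 80.1% and 83.1% in sg*NF2*-1.

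For the ZEB genes, *ZEB1* (ENSG00000148516, chromosome 10, 31318495 to 31529814, plus strand) had 503, 704 and 642 counts in sgCtrl and 610, 587 and 466 in sg*NF2*-1. The groups overlapped, since sgCtrl replicate 1 was the lowest of all 6 libraries in CPM, and the means were 39.0 ± 6.18 and 35.1 ± 2.69 CPM. The log2 fold change of *ZEB1* was -0.15 (standard error 0.11). *ZEB2* (ENSG00000169554, chromosome 2, 144364364 to 144524583, minus strand) had 624, 824 and 700 counts in sgCtrl and 874, 706 and 628 in sg*NF2*-1. Its groups also overlapped, at 45.3 ± 5.35 and 46.5 ± 2.86 CPM, with a log2 fold change of 0.04 (standard error 0.10). *ZEB1* held 71.3 ± 1.32% of the FPKM of the pair in sgCtrl and 68.6 ± 1.90% in sg*NF2*-1. This share depends on the deposited lengths, 8650 bases for *ZEB1* and 25058 for *ZEB2*, since *ZEB2* had more counts in every library. With the length of the longest coding transcript, *ZEB1* and *ZEB2* were at 5.90 and 4.48 FPKM in sgCtrl. In sg*NF2*-1 they were at 5.27 and 4.56 FPKM. Whether counting used strand was not stated, and *ZEB1* shares 366 exonic bases (4.23% of its exons) with the antisense gene *ZEB1-AS1*, which had 143 to 201 counts. *ZEB2* shares 1299 bases (5.18%) with *ZEB2-AS1*, which had at most 3 counts.

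The other factors were at the detection limit. *TCF4* (ENSG00000196628, chromosome 18), the E protein gene and not the Wnt effector *TCF7L2*, had 1, 1 and 2 counts in sgCtrl and 1 count in each sg*NF2*-1 library. *FOXC2* (ENSG00000176692, chromosome 16) had 5, 1 and 1 counts in sgCtrl and 1, 3 and 3 in sg*NF2*-1. The groups overlapped for both, and a difference was not detectable at this depth.

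Levels of different genes were compared per length, as the deposited FPKM. In sgCtrl the order was *TWIST2* (13.5 ± 1.58 FPKM), *SNAI1* (4.84 ± 0.245), *TWIST1* (4.65 ± 0.363), *ZEB1* (4.28 ± 0.677), *ZEB2* (1.71 ± 0.204), *PRRX1* (0.878 ± 0.195), *SNAI2* (0.555 ± 0.0631), *PRRX2* (0.0629), *FOXC2* (0.0484) and *TCF4* (0.0029). The ranges of *SNAI1*, *TWIST1* and *ZEB1* overlapped between neighbors, as did those of *PRRX2* and *FOXC2*, so their order is not resolved. In sg*NF2*-1 *TWIST2* again led, at 13.7 ± 0.574 FPKM, followed by *ZEB1* (3.82 ± 0.301), *TWIST1* (3.21 ± 0.460), *SNAI1* (2.16 ± 0.415), *ZEB2* (1.74 ± 0.107) and *SNAI2* (0.954 ± 0.120). *SNAI1* and *ZEB2* overlapped there. *PRRX2* (0.141), *FOXC2* (0.0499) and *PRRX1* (0.0326 ± 0.0166) rested on 8 or fewer counts per library there, and their order is not resolved. The FPKM summed over the 10 factors was 30.5 ± 1.19 in sgCtrl and 25.8 ± 1.76 in sg*NF2*-1, of which *TWIST2* alone was 44.1% and 53.1%.

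**Figure D2:**
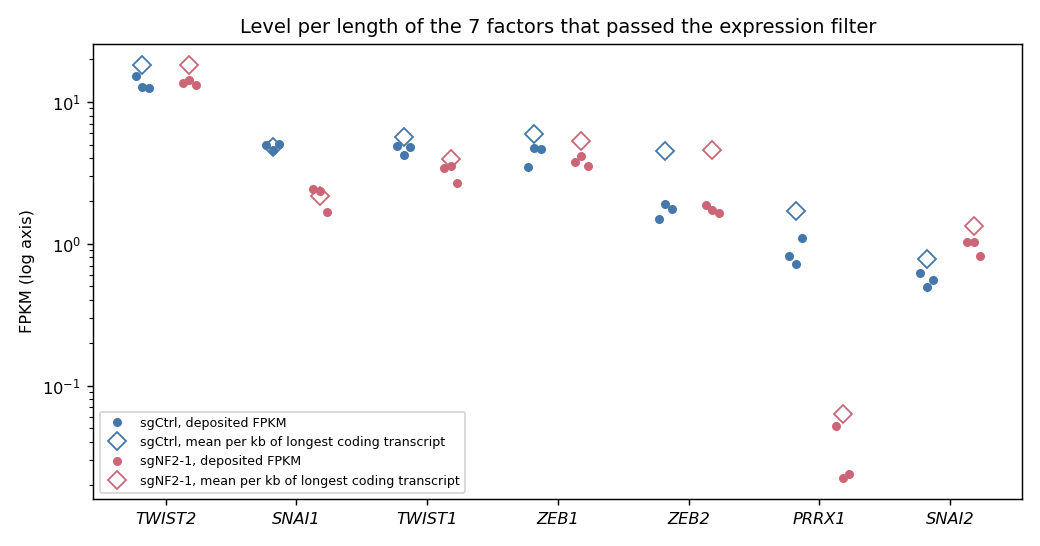
FPKM (log axis) of the 7 factors that passed the expression filter, with 1 filled point per library and open diamonds for the group mean rescaled to the longest protein-coding transcript. *TWIST2* leads in both groups, and *ZEB2* moves from 1.71 to 4.48 FPKM in sgCtrl when its length is taken as 9583 in place of 25058 bases.

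The order depends on the length assigned to a gene, which in the deposited table is the union of all annotated exons. For *ZEB2* this was 25058 bases, against 9583 for its longest protein-coding transcript, and for *PRRX1* it was 8246 against 4284 bases. Per base of that transcript, *ZEB2* was at 4.48 FPKM in sgCtrl, between *SNAI1* (4.84, with a single length) and *PRRX1* (1.69), and *TWIST2* still led at 18.03.

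Lists of genes that act with or beside these factors were examined next. The lists were chosen with earlier results of these data known. Their counts and p-values are therefore a description, and nothing is concluded from a difference from the shares over all tested genes. Their calls are given beside the 8.42% higher and 9.32% lower over all tested genes, whose median log2 fold change was -0.0025.

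**Figure D3:**
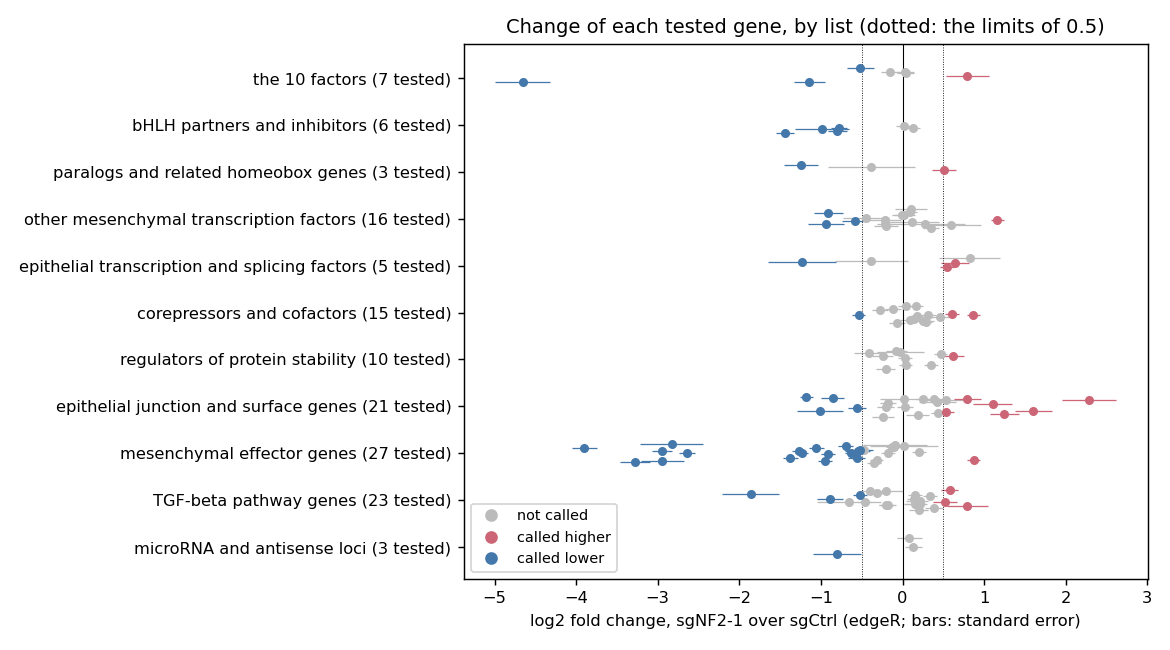
Log2 fold change of sg*NF2*-1 over sgCtrl with its standard error (edgeR) for every tested gene of each list, with 1 point per gene, blue for called lower, red for called higher and gray for neither. *PRRX1* (-4.66) and *COL3A1* (-3.90) lie farthest to the left, and *OCLN* (2.29) farthest to the right.

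Of the 6 dimerization partners and inhibitors of TWIST proteins, all were tested, 0 rose and 4 fell (adjusted p under 0.05 and the fold limit, edgeR), with a median log2 fold change of -0.79. DESeq2 also called 0 higher, and at an unadjusted p under 0.05 in edgeR 0 were higher. All 4 that fell encode ID proteins, which pair with E proteins and keep them from DNA. *ID2* had 1209, 1338 and 1469 counts in sgCtrl and 588, 401 and 494 in sg*NF2*-1, and the groups did not overlap. Mean *ID2* fell from 85.0 ± 10.5 to 31.4 ± 4.70 CPM (log2 fold change -1.44, standard error 0.11, adjusted p = 3.0e-10, edgeR). *ID1*, *ID3* and *ID4* had log2 fold changes of -0.78, -0.80 and -0.99. *ID4* had 17 to 41 counts, and its call was lost with DESeq2 (-0.99), without sgCtrl replicate 2 (-0.90), without sg*NF2*-1 replicate 1 (-0.95) and without sg*NF2*-1 replicate 2 (-0.97). The E protein genes *TCF3* (0.13, standard error 0.09) and *TCF12* (0.01, standard error 0.09) were not called. Per length, *TCF3* was at 18.3 ± 1.75 FPKM and *TCF12* at 7.24 ± 0.75 FPKM in sgCtrl, beside 0.0029 FPKM for *TCF4*.

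Of 6 paralogs and related homeobox genes, 3 were tested. *SHOX2*, a homeobox gene of limb mesenchyme, fell from 9.05 ± 2.75 to 3.82 ± 0.0898 CPM (log2 fold change -1.24, standard error 0.21, adjusted p = 4.3e-05, edgeR). *FOXC1*, the paralog of *FOXC2*, rose from 8.35 ± 0.695 to 11.9 ± 0.944 CPM (log2 fold change 0.51, standard error 0.15, adjusted p = 0.0088, edgeR). The *FOXC1* call was lost with library totals alone (0.48), and without sgCtrl replicate 1 (0.49) or 3 (0.47) or sg*NF2*-1 replicate 2 (0.47) or 3 (0.49). *SNAI3*, the remaining Snail gene, had 4 to 8 counts in sgCtrl and 1 to 2 in sg*NF2*-1 and was not tested.

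Among 29 other mesenchymal transcription factors, 16 were tested, 1 rose and 3 fell, and the median was 0.0021. *FOSL1*, an AP-1 subunit, rose from 101 ± 1.77 to 225 ± 11.3 CPM (log2 fold change 1.16, standard error 0.08, adjusted p = 5.1e-11, edgeR). *RUNX2*, the regulator of osteoblasts, fell from 5.24 ± 0.0805 to 2.74 ± 0.125 CPM (log2 fold change -0.94, standard error 0.22, adjusted p = 0.0016, edgeR). *SOX4* (-0.91) and the chromatin protein gene *HMGA2* (-0.58) also fell, the latter no longer called without sg*NF2*-1 replicate 3 (-0.44). *TCF21*, *HAND1*, *MEOX1* and *MEOX2* had 0 counts in every library.

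Factors of the epithelial state were examined in the same way. Of 13 epithelial transcription and splicing factors, 5 were tested, and *GRHL2*, *OVOL1*, *OVOL2*, *EHF* and *FOXA2* had 0 counts in all 6 libraries. *ESRP2*, a splicing factor of epithelial isoforms, rose from 5.76 ± 0.952 to 9.05 ± 0.935 CPM (log2 fold change 0.64, standard error 0.18, adjusted p = 0.0056, edgeR). *KLF4*, a zinc-finger factor, rose from 95.2 ± 4.53 to 139 ± 10.1 CPM (log2 fold change 0.55, standard error 0.08, adjusted p = 1.5e-05, edgeR). *ELF3* had 7 to 27 counts and fell with a log2 fold change of -1.23. Its call was lost with DESeq2 (-1.23), and without sgCtrl replicate 1 (-1.20) or 2 (-1.13) or sg*NF2*-1 replicate 1 (-1.24) or 2 (-1.06).

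*CDH1*, the classical target of Snail and ZEB repression, had 0 counts in all 6 libraries. A count of 0 allows up to 3 counts, or 0.170 to 0.211 CPM depending on the library. Of 33 epithelial junction and surface genes, 21 were tested, 6 rose and 4 fell, with a median log2 fold change of 0.25. *OCLN*, which encodes the tight junction protein occludin, had 12, 11 and 12 counts in sgCtrl and 56, 74 and 42 in sg*NF2*-1. It rose from 0.741 ± 0.0629 to 3.64 ± 1.00 CPM (log2 fold change 2.29, standard error 0.33, adjusted p = 7.7e-06, edgeR). The desmosomal *PKP2* (1.60), the tricellular junction gene *LSR* (1.25), *MARVELD2* (1.10), *DSP* (0.79) and *SPINT2* (0.53) also rose. Among those that fell were *PARD6B* (-1.01), which encodes a polarity protein, *MUC1* (-0.86), which encodes a surface mucin, and *CXADR* (-0.55), which encodes a junction-associated adhesion protein. Calls were lost for *PARD6B* without sgCtrl replicate 2 (-0.74), for *SPINT2* without sgCtrl replicate 3 (0.47) or sg*NF2*-1 replicate 3 (0.49), and for *CXADR* without sg*NF2*-1 replicate 3 (-0.497).

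Of 32 mesenchymal effector genes, the matrix, cytoskeletal and surface genes that define the mesenchymal state, 27 were tested, 1 rose and 17 fell, with a median log2 fold change of -0.63. *COL3A1*, which encodes a fibrillar collagen chain, had 489, 498 and 464 counts in sgCtrl and 41, 26 and 30 in sg*NF2*-1. Mean *COL3A1* fell from 30.6 ± 0.348 to 2.04 ± 0.328 CPM (log2 fold change -3.90, standard error 0.16, adjusted p = 2.2e-15, edgeR). *POSTN*, which encodes the matrix protein periostin, fell from 15.6 ± 0.536 to 1.62 ± 0.182 CPM (log2 fold change -3.27, standard error 0.18, adjusted p = 1.1e-12, edgeR). *COL1A2*, of type I collagen, fell from 119 ± 17.7 to 15.5 ± 2.17 CPM (log2 fold change -2.95, standard error 0.12, adjusted p = 2.2e-15, edgeR). The receptor kinase gene *AXL* moved the other way, from 270 ± 6.18 to 494 ± 29.6 CPM (log2 fold change 0.87, standard error 0.08, adjusted p = 7.8e-09, edgeR). *VIM*, which encodes vimentin, had a log2 fold change of 0.20 (adjusted p = 0.072, edgeR) at 2274 CPM in sgCtrl. *CDH2*, which encodes N-cadherin, passed the adjusted p but not the fold limit (log2 fold change -0.32, adjusted p = 0.0037, edgeR). *FN1*, which encodes fibronectin, fell with a log2 fold change of -0.56 (adjusted p = 0.00022, edgeR), a call lost without sgCtrl replicate 2 (-0.42) or sg*NF2*-1 replicate 3 (-0.48). Calls were also lost for *THY1* without sgCtrl replicate 2 (-0.47) or 3 (-0.48) or sg*NF2*-1 replicate 2 (-0.42), and for *TAGLN* without sgCtrl replicate 3 (-0.49) or sg*NF2*-1 replicate 3 (-0.49).

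The genes with the profile most like that of *PRRX1* over the 6 libraries were sought among all tested genes with a mean of at least 1 CPM. The measure was the root-mean-square difference of log2 CPM after centering each gene on its own mean, so it compares the size of the group difference as well as the pattern within groups. The nearest was *COL3A1* (0.335 log2 units), followed by *SFRP2* (0.496), *MGP* (0.515), *POSTN* (0.647) and *IL13RA2* (0.737). *SFRP2*, a secreted Wnt regulator, had 608, 634 and 590 counts in sgCtrl and 60, 58 and 37 in sg*NF2*-1. *MGP*, which encodes matrix Gla protein, had 42, 43 and 80 counts in sgCtrl and 2, 2 and 3 in sg*NF2*-1. For *MGP*, as for *PRRX1*, sgCtrl replicate 3 was the highest library. At their low sg*NF2*-1 counts, the log2 CPM of both also depends on the prior count of 2 added before the logarithm.

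**Figure D4:**
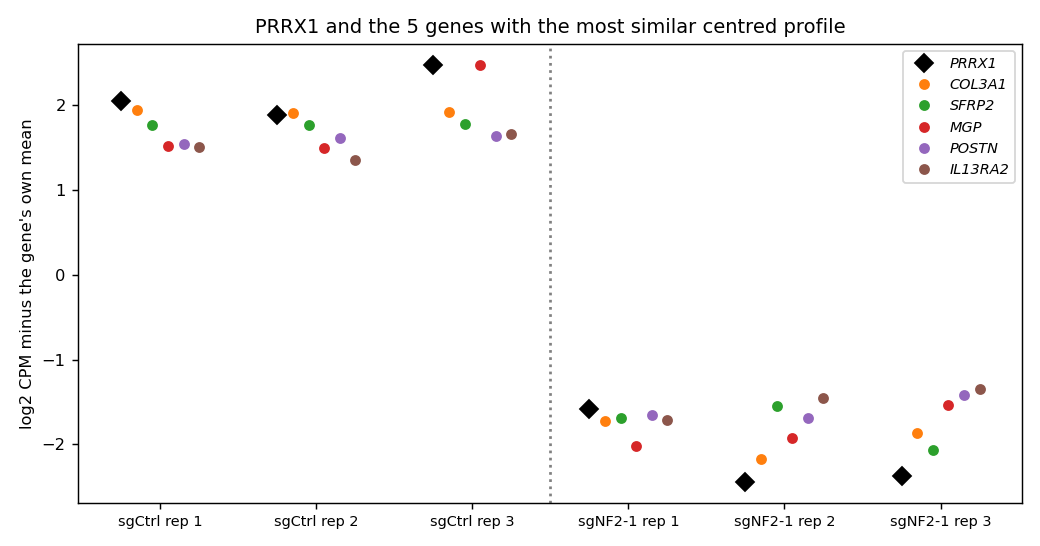
Log2 CPM minus the gene's own mean over the 6 libraries, for *PRRX1* (diamonds) and the 5 genes with the smallest root-mean-square difference from it (circles). All 6 genes lie above 0 in the 3 sgCtrl libraries and below 0 in the 3 sg*NF2*-1 libraries, which follows from their selection by similarity to *PRRX1*. *COL3A1* is nearest to *PRRX1* at 0.335 log2 units.

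Snail and ZEB proteins act through corepressors, and Snail and TWIST proteins are short-lived. Of 15 corepressors and cofactors, all were tested, 2 rose and 1 fell, with a median log2 fold change of 0.17. *AJUBA*, a LIM protein that binds Snail, rose from 96.3 ± 7.85 to 176 ± 8.16 CPM (log2 fold change 0.87, standard error 0.08, adjusted p = 1.6e-08, edgeR). *PRMT5*, an arginine methyltransferase, rose with a log2 fold change of 0.61, and *HDAC1*, a histone deacetylase, fell with -0.54. Of 10 regulators of protein stability, 1 rose, *SIAH1* (log2 fold change 0.62, standard error 0.14, adjusted p = 0.00090, edgeR), which encodes a ubiquitin ligase. The kinase gene *GSK3B*, whose product marks SNAI1 for degradation, had a log2 fold change of 0.03 (standard error 0.08). Protein levels of the factors were not analysed here.

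TGF-beta signaling is a common inducer of these factors. Of 23 genes of the pathway, all tested, 3 rose, 3 fell and 17 were called in neither direction, with a median log2 fold change of 0.15. *SMAD6*, which encodes an inhibitory SMAD, fell from 3.44 ± 1.01 to 0.923 ± 0.407 CPM (log2 fold change -1.86, standard error 0.35, adjusted p = 0.00019, edgeR). Not every library reached 10 counts of *SMAD6*, so it was not fitted under the filter that requires this. It was called in 11 of the 11 alternatives that fitted it. The coreceptor gene *TGFBR3* (-0.89) and *LTBP3* (-0.52), of a latency protein, fell. *LTBP1* (0.79), the ubiquitin ligase gene *SMURF2* (0.58) and the decoy receptor gene *BAMBI* (0.52) rose. Calls were lost for *LTBP1* without sg*NF2*-1 replicate 3 (0.54), for *SMURF2* without sgCtrl replicate 1 (0.49), and for *LTBP3* without sgCtrl replicate 1 (-0.40) or sg*NF2*-1 replicate 1 (-0.48). The *BAMBI* call was lost with library totals alone (0.495), and without sgCtrl replicate 1 (0.48) or 2 (0.48) or sg*NF2*-1 replicate 2 (0.45). The number that rose was 1 without sgCtrl replicate 1, and 2 or 3 without any other library.

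The miR-200 family, which represses *ZEB1* and *ZEB2*, is shown because its seeds define the sites in these transcripts. The mature sequences are from RefSeq on GRCh38.p14, with the seed (bases 2 to 8) in capitals.
hsa-miR-200b-3p: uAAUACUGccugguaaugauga
hsa-miR-200c-3p: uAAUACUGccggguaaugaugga
hsa-miR-429: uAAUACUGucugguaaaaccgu
hsa-miR-141-3p: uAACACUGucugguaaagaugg
hsa-miR-200a-3p: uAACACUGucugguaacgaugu
The first 3 share the seed AAUACUG, whose matching site CAGTATT occurred 6 times in the 2549 bases after the coding sequence of *ZEB1* and 5 times in the 5370 bases after that of *ZEB2*. The other 2 share AACACUG, whose site CAGTGTT occurred 3 and 4 times. Neither site occurred after the coding sequence of *SNAI1*, *TWIST1*, *TWIST2* or *PRRX1*. The 5 gene loci of the family had 0 counts in all 6 libraries, in a library type that does not measure mature miRNAs. Of 15 microRNA and antisense loci, 3 were tested. *ZEB1-AS1* (0.08, standard error 0.15) and *MIR100HG* (0.13, standard error 0.11) were not called, and *SNAI3-AS1*, with 22 to 47 counts, fell (log2 fold change -0.80, standard error 0.29, adjusted p = 0.036, edgeR). The *SNAI3-AS1* call was lost with DESeq2 (-0.80), with no filter (-0.79), and without sgCtrl replicate 2 (-0.79) or 3 (-0.72) or sg*NF2*-1 replicate 1 (-0.79) or 2 (-0.72).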

How the data were processed

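Unnormalized gene counts and FPKM for 3 sgCtrl and 3 sg*NF2*-1 libraries were deposited by the authors. The submitters' processing notes name HISAT2, StringTie 1.3.3b, featureCounts 1.5.0-p3 and hg38, and the methods name DESeq2 for differential expression. Whether counting used strand is not given in the sources used here. The deposited FPKM equalled the count divided by the gene length and by 1 depth per library within 1% for genes with at least 50 counts. Gene spans, exons and transcripts were taken from GENCODE release 29, promoters and miRNAs from RefSeq.

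Groups followed the sample labels. Genes were filtered with filterByExpr (minimum count 10), which left 14179, normalized by TMM and fitted with edgeR's quasi-likelihood test (R 4.3.3, edgeR 4.0.16), with Benjamini-Hochberg adjustment. A call needed an adjusted p under 0.05 together with a log2 fold change past 0.5. FPKM values were fitted with limma 3.58.1 on log2(FPKM + 1) for genes with a mean of at least 0.5, which left out *PRRX1*. The alternatives were DESeq2 1.42.0, 2 other scalings, 2 other filters, no fold limit, a replicate block, a pseudocount of 0.1 and leaving out each library. The procedures were tested on simulated data. The genes studied and the lists were chosen with earlier results of these data known.

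Named genes were the 10 factors, *NF2*, *CDH1*, *CDH2*, *VIM*, *FN1*, detected antisense and microRNA loci, the 5 profiles nearest to *PRRX1* and, in each list, up to 3 called genes per direction with the largest change, a mean of at least 1 CPM and no overlap. Markers, genes at 0 counts, genes whose calls were lost, and the remaining genes named were added after their values were seen. A result that this rule selects is left out of the text.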

Additional observations from a re-analysis of the deposited data

How the results depend on the processing

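A reversed direction was scored only for *NF2* and the called factors, and none occurred. Of 507 values and counts, 458 stayed within limits that differed by kind. Counts of calls had to be equal or within 1.5 times, which held for 305 of 338. *NF2* had to keep its call. Fold changes and FPKM values of the factors had to stay within the SD between libraries, so a lost call could stay within the limit. *PRRX1* was called in 11 of 11 alternatives that could fit it (it lacked 10 counts in every library) and *SNAI1* in 12 of 12. *SNAI2* was called in 8 of 12, *TWIST1* in 9 of 12, and *TWIST2*, *ZEB1* and *ZEB2* in 0. These tallies describe the dependence on processing and give no support to a change, since the contrast was used in assembling the genes. With no fold limit, 2515 of all tested genes were higher and 2351 lower, and the counts became 2 higher for other mesenchymal factors, 5 higher and 2 lower for corepressors, 3 higher for stability regulators, 6 higher and 5 lower for TGF-beta genes, and 25 higher and 12 lower within 1 Mb. With DESeq2, 0 of the 10 factors were higher, and 0 epithelial factors and 0 microRNA and antisense loci were lower. The latter was also 0 with no filter, the epithelial factors 0 with at least 10 counts in every library, and the paralogs 0 higher with library totals. The causes of these shifts were not tested. On the log2(FPKM + 1) scale the differences were -0.90 for *SNAI1* and 0.33 for *SNAI2*, and with a pseudocount of 0.1 they were -1.15 and 0.68. With the length of the longest coding transcript, chosen after seeing the data, FPKM in sgCtrl and sg*NF2*-1 was 1.69 and 0.0628 for *PRRX1*, 0.776 and 1.33 for *SNAI2*, 5.68 and 3.92 for *TWIST1*, 18.03 and 18.3 for *TWIST2*, 5.90 and 5.27 for *ZEB1*, 4.48 and 4.56 for *ZEB2*, and 0.0097 and 0.0072 for *TCF4*. Leaving out each library gave 0 to 1 factors higher, 0 to 1 paralogs higher, 0 to 1 epithelial factors lower, 0 to 1 stability regulators lower, 1 to 3 TGF-beta genes higher and 0 to 1 microRNA and antisense loci lower. Whether replicate numbers pair the libraries is not given in the sources used here. The deviations of libraries with the same number correlated at -0.03, 0.06 and 0.05, which cannot settle this with 3 libraries per group. A replicate block gave 1186 genes higher and 1316 lower, with *PRRX1* at -4.65. Counts at or under 3 limit *PRRX2*, *TCF4*, *FOXC2* and, in sg*NF2*-1, *PRRX1*.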

Other observations

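The genes around the 10 factors were also described. Of 109 tested genes that start within 1 Mb of a factor, 10 were called higher and 6 lower, with a median log2 fold change of 0.11, beside 8.42% and 9.32% over all tested genes. Around *PRRX1*, 6 neighbors were tested, with log2 fold changes from -0.67 to 0.15. *SCYL3* was the 1 called lower among them (-0.58, adjusted p = 0.043, edgeR), with groups that overlapped. The nearest tested neighbor, *GORAB*, was at -0.34 in log2 (SE 0.16, adjusted p = 0.10, edgeR). These genes were named after their values were seen. On the log2(FPKM + 1) scale, *TWIST1* differed by -0.43 (standard error 0.10), *TWIST2* by 0.02 (0.09), *ZEB1* by -0.13 (0.11) and *ZEB2* by 0.02 (0.08), given as a description.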
